A study of Mus musculus with 8 samples.

Results

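The TRAV9 family, whose receptors are also known under the older name V alpha 3, is a group of closely related V segments of the T-cell receptor (TCR) alpha locus. Its members here were the assembled alpha chains whose V gene was called TRAV9, TRAV9D or TRAV9N by the authors' software, and they were found in 341 of the 2298 cells with an alpha chain. These cells belonged to 122 of the 1377 clonotypes with an alpha chain, a clonotype being a set of cells given the same receptor. The family was selected from these V gene calls with its large clones already known, so its shares are described without a test.

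TCRs were read from single brain cells of C57BL/6 mice with traumatic brain injury (TBI) made by controlled cortical impact. Young mice (YTBI) were injured at 13 to 15 weeks of age and aged mice (ATBI) at 80 to 82 weeks. Every mouse had TBI and received 300 µg of antibody 2 h after injury and every 2 weeks after that, either an antibody to CD49d, the α4 integrin of leukocytes (aCD49d Ab), or an isotype control. Brain CD45+ cells were sorted 2 months after TBI, and the cells of 2 mice were pooled into a library. The libraries are named YTBI_Isotype and YTBI_aCD49d for young mice, and ATBI_Isotype and ATBI_aCD49d for aged mice. As each group is a single library, every interval given below is a 95% interval for counting error only, and the cells of 1 clone are not independent of each other. Within an age the treatment cannot be told apart from the pool of mice, and within a treatment the age cannot be told apart from it. Uninjured mice were not among the groups, and CD4 or CD8 lineage was not read from these files.

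A T cell builds its alpha chain by joining 1 of many V segments to 1 of many J segments, with bases trimmed and added at the join. The stretch across the join is the complementarity-determining region 3 (CDR3), which faces the peptide, while CDR1 and CDR2 are encoded in the V segment and lie mainly over the presenting molecule. In C57BL/6 mice a large part of the V alpha locus is present in extra copies, marked D and N, beside the unmarked copy that lies nearest to the J segments. Alpha rearrangement tends to start with V segments near the J cluster and J segments at its 5′ end, and a cell can go on to V segments farther away and J segments farther 3′.

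The GRCm38 (mm10) annotation, GENCODE vM21, holds 11 TRAV9 genes, all on the plus strand of chromosome 14. Trav9-2 lies at chr14:53590857-53591514, Trav9-4 at chr14:53676141-53676630 and Trav9-1 at chr14:53488045-53488567, all in the unmarked copy. Trav9d-1, Trav9d-2 and Trav9d-3 lie in the D copy, the last at chr14:52920443-52921112, and Trav9n-4 lies in the N copy at chr14:53294341-53295030. No chain was called TRAV9D-4, TRAV9N-1, TRAV9N-2 or TRAV9N-3, and Trav9n-1 is annotated as a pseudogene. For TRAV9D-4 and TRAV9N-1 a count of 0, read as a limit of 3 cells, allows a share of up to 1.38% of alpha-bearing cells in YTBI_Isotype and 0.320% in ATBI_aCD49d. This limit takes the V gene calls as given.

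The calls could be checked base by base. All 342 TRAV9 chains matched the germline gene they were called as over the 270 bases before the CDR3, with no mismatch. None of the 2077 other alpha chains matched a TRAV9 germline in this way. This says little about TRAV9D-4 and TRAV9N-1, whose germline bases as compared were far from the segments found. TRAV9-4 chains, for example, differed from TRAV9D-4 at 129 of 251 bases and from TRAV9N-1 at 204 of 270. Bases were compared position by position with no gaps, so a shift between the sequences would also give high counts. These counts are therefore not read as the distance between the genes. Over these 270 bases TRAV9D-3 is identical to TRAV9N-3 and TRAV9D-2 to TRAV9N-2, so for these segments the D and the N copy cannot be told apart, a count of 0 for TRAV9N-2 or TRAV9N-3 sets no limit, and the D copy is named below only as called. TRAV9-2 and TRAV9-4, which carried the large clones, differ from each other at 6 of the 270 bases, and TRAV9-1 and TRAV9D-1 at 2.

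The CDR1 bases of the 7 segments found show how they differ at the first germline contact loop. They are read from the deposited chains, with capitals at the bases that differ from TRAV9-2.
TRAV9-2: tactctgggacaccttat
TRAV9-4: tactctgggacGccttat
TRAV9D-2: tCctctgggacaccttat
TRAV9D-3: tactTtgggacaccttat
TRAV9N-4: tactctgCgacaccttat
TRAV9-1: taTGGtggATcCATttaC
TRAV9D-1: taTGGtggATcCATttaC
TRAV9-4 differed from TRAV9-2 by 1 of 18 CDR1 bases, which left the encoded residues the same. TRAV9D-2, TRAV9D-3 and TRAV9N-4 each differed by 1 base that changed a residue. TRAV9-1 and TRAV9D-1 shared a CDR1 with 9 differences and stood apart from the other 5 segments.

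The germline V bases that open the CDR3 are shown for the segments of the clones described below, since the join begins within them.
TRAV9-2: tgtgttttgagcg
TRAV9-4: tgtgctgtgagcg
TRAV9D-3: tgtgctgtgagca
TRAV9N-4: tgtgctctgagca

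The TRAV9 share was first compared between libraries as a share of cells. A TRAV9 chain was found in 28 of 217 alpha-bearing cells of YTBI_Isotype (12.9%, 8.75 to 18.1%) and in 48 of 452 of YTBI_aCD49d (10.6%, 7.93 to 13.8%). It was found in 51 of 692 cells of ATBI_Isotype (7.37%, 5.54 to 9.58%) and in 214 of 937 of ATBI_aCD49d (22.8%, 20.2 to 25.7%). ATBI_aCD49d was the highest of the 4. The share was 15.5 points higher in ATBI_aCD49d than in ATBI_Isotype (12.0 to 18.8 points). In the young libraries aCD49d minus isotype was −2.28 points, with an interval from −8.14 to 2.97 that includes 0. Between the ages, the aged minus young difference was −5.53 points with isotype (−11.1 to −0.829 points), and 12.2 points with aCD49d Ab (8.05 to 16.1 points).

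**Figure D1:**
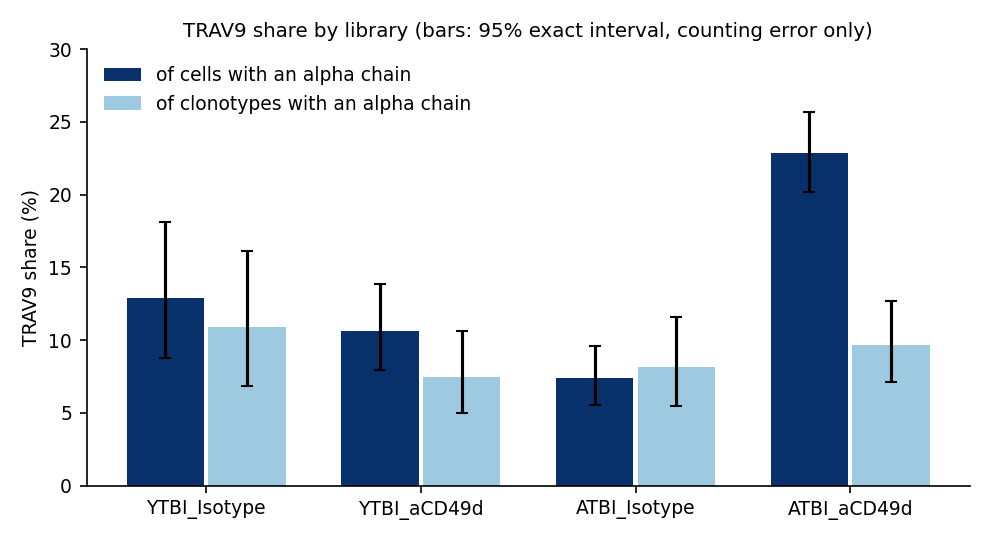
Share of alpha-bearing cells (dark bars) and of alpha-bearing clonotypes (light bars) with a TRAV9 chain in each library, in percent, with 95% exact intervals for counting error. The cell share of ATBI_aCD49d, 22.8%, stands above the other 3 libraries, while the clonotype shares lie between 7.47% and 10.9%.

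Counted as clonotypes, in which a clone counts once whatever its size, the libraries were close together. TRAV9 was carried by 21 of 193 clonotypes in YTBI_Isotype (10.9%, 6.86 to 16.2%), 28 of 375 in YTBI_aCD49d (7.47%, 5.02 to 10.6%), 28 of 343 in ATBI_Isotype (8.16%, 5.49 to 11.6%) and 45 of 466 in ATBI_aCD49d (9.66%, 7.13 to 12.7%). All 4 intervals overlapped. The difference between the aged libraries was 1.49 points (−2.76 to 5.55) and that between the young ones −3.41 points (−9.22 to 1.69). The TRAV9 clones above 5% of their library were then left out, a setting chosen after seeing the data. Clonotypes with the same CDR3 bases in both chains counted as 1 clone here, so a clonotype of 12 cells in ATBI_aCD49d was left out too. The cell share of ATBI_aCD49d was then 65 of 788 cells (8.25%, 6.42 to 10.4%). It then lay 0.879 points above ATBI_Isotype, with an interval from −1.98 to 3.70 that includes 0. Clones of other alpha chains stayed in, the largest with 109 cells in ATBI_Isotype and 69 in ATBI_aCD49d. The remaining shares are therefore not fully alike in what they count. The same setting left 27 of 431 cells in YTBI_aCD49d (6.26%, 4.17 to 8.98%), and the young difference, aCD49d minus isotype, was then −6.64 points (−12.2 to −1.67). No TRAV9 clone of either isotype library was that large, so only the aCD49d libraries lost a clone.

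A wider view of the alpha families puts the cell share in place. Of the 13 alpha families with at least 10 clonotypes in either aged library, 61.5% differed by at least 1.5-fold in cell share between ATBI_aCD49d and ATBI_Isotype. TRAV9 was 1 of these 8, with a ratio of 3.10, and the contrast was part of how the family was chosen. Over clonotypes only 15.4% of the families differed by that much, and TRAV9 was not among them (ratio 1.18). Between the young libraries 30.8% of the families differed by 1.5-fold in cells and 30.8% in clonotypes, and TRAV9 did so in neither (ratios 0.823 and 0.686). By cells TRAV9 ranked 3rd in YTBI_Isotype, 4th in YTBI_aCD49d and in ATBI_Isotype, and 1st in ATBI_aCD49d, where TRAV16 came next with 13.7%. By clonotypes it ranked 4th, 7th, 6th and 5th in the same order.

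Cells and clonotypes also gave different pictures of the segments. Among TRAV9 clonotypes TRAV9D-3, as called, was the most frequent segment over the 4 libraries (35 clonotypes). Its chains cannot be told apart from TRAV9N-3, so this count may span both genes. TRAV9-2 (26) and TRAV9-4 (25) followed, then TRAV9-1 and TRAV9N-4 (14 each), and TRAV9D-1 and TRAV9D-2 (4 each). The order differed by library: TRAV9D-3 was carried by 5, 10, 10 and 10 clonotypes of YTBI_Isotype, YTBI_aCD49d, ATBI_Isotype and ATBI_aCD49d, TRAV9-2 and TRAV9-4 had 6 each in YTBI_Isotype, and TRAV9-4 had 11 in ATBI_aCD49d. TRAV9-4 was carried by 6 of 21 TRAV9 clonotypes in YTBI_Isotype, 3 of 28 in YTBI_aCD49d, 5 of 28 in ATBI_Isotype and 11 of 45 in ATBI_aCD49d (24.4%, 12.9 to 39.5%). In cells, TRAV9-4 was found in 6, 3, 5 and 162 cells in the same order. The 162 cells were 75.7% of the TRAV9 cells of ATBI_aCD49d and 17.3% of all its alpha-bearing cells (14.9 to 19.9%). In the other 3 libraries TRAV9-4 was in 0.664% to 2.76% of alpha-bearing cells.

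TRAV9-2 was the leading segment by cells in the young libraries, in 12 cells of YTBI_Isotype (5.53% of alpha-bearing cells, 2.89 to 9.46%) and 28 of YTBI_aCD49d (6.19%, 4.16 to 8.83%). It was in 3 cells of ATBI_Isotype (0.434%, 0.0895 to 1.26%) and 14 of ATBI_aCD49d (1.49%, 0.819 to 2.49%). The young shares were the higher ones, and 21 of the 28 cells of YTBI_aCD49d belonged to 1 clone. By clonotypes TRAV9-2 made up 6 of 21, 8 of 28, 2 of 28 and 10 of 45, with overlapping intervals.

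TRAV9D-3 had like shares of alpha-bearing cells in the 4 libraries, from 2.21% in YTBI_aCD49d to 3.32% in ATBI_Isotype, with 2.76% in YTBI_Isotype and 2.56% in ATBI_aCD49d. It was the leading segment by cells in ATBI_Isotype, with 23 of 51 TRAV9 cells. TRAV9N-4 was in 1, 4, 9 and 7 cells, and the 9 cells of ATBI_Isotype included 8 of a single clone. TRAV9-1 was in 1, 2, 8 and 5 cells.

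**Figure D2:**
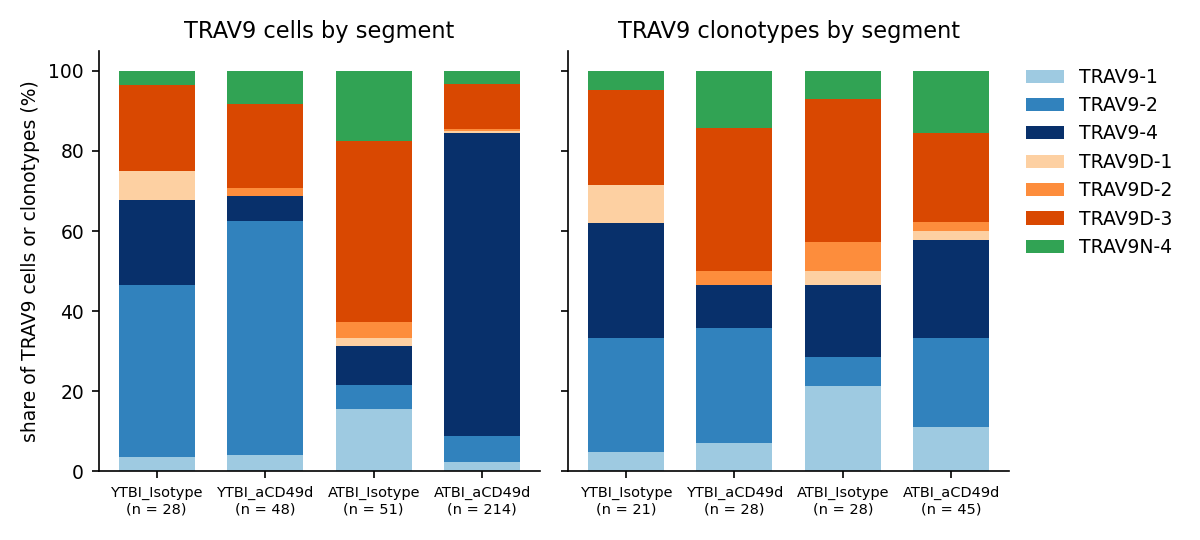
Segment make-up of the TRAV9 cells (left) and of the TRAV9 clonotypes (right) of each library, in percent, stacked by the segment called. TRAV9-4 fills 75.7% of the TRAV9 cells of ATBI_aCD49d but 24.4% of its TRAV9 clonotypes.

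Summed by copy, the unmarked segments made up 13 of 21 TRAV9 clonotypes in YTBI_Isotype (61.9%, 38.4 to 81.9%), 13 of 28 in YTBI_aCD49d (46.4%, 27.5 to 66.1%), 13 of 28 in ATBI_Isotype (46.4%, 27.5 to 66.1%) and 26 of 45 in ATBI_aCD49d (57.8%, 42.2 to 72.3%). These intervals overlapped throughout. By cells the unmarked copy reached 84.6% in ATBI_aCD49d (79.0 to 89.1%) and was 31.4% in ATBI_Isotype (19.1 to 45.9%), against 67.9% and 68.8% in the young libraries. Segments called as D made up 7, 11, 13 and 12 clonotypes, and TRAV9N-4, the only segment called as N, 1, 4, 2 and 7.

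Clone sizes were compared next, counting every cell of a clonotype that held a TRAV9 chain in any of its cells. Most TRAV9 clonotypes were a single cell: 18 of 21 in YTBI_Isotype, 23 of 28 in YTBI_aCD49d, 21 of 28 in ATBI_Isotype and 35 of 45 in ATBI_aCD49d. The share with at least 2 cells, called clonal, was 14.3% (3.05 to 36.3%), 17.9% (6.06 to 36.9%), 25.0% (10.7 to 44.9%) and 22.2% (11.2 to 37.1%). Among clonotypes with other alpha chains it was 7.56%, 9.51%, 23.2% and 16.4%, and each of these values lay inside the TRAV9 interval of its library. With only cells with both chains, the TRAV9 shares were 14.3%, 7.14%, 25.9% and 20.9% in the same order. The shares of other alpha chains were not recomputed in this way.

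By cells, 40.0% of the cells of TRAV9 clonotypes were in clonal ones in YTBI_Isotype (22.7 to 59.4%), against 17.6% for other alpha chains (12.5 to 23.7%). In YTBI_aCD49d the values were 64.6% (51.8 to 76.1%) and 25.4% (21.3 to 29.9%), and in ATBI_aCD49d 86.6% (81.8 to 90.5%) and 54.1% (50.5 to 57.7%). ATBI_Isotype went the other way, with 65.6% (52.3 to 77.3%) for TRAV9 and 71.2% (68.0 to 74.2%) for the rest. These shares restate the large clones with which the family was chosen, since every cell of a clone is clonal: 1 clone held 33 of the 65 cells in YTBI_aCD49d, and clones of 101 and 78 cells were among the 261 in ATBI_aCD49d. With the largest TRAV9 clone of each library left out, the TRAV9 shares were 21.7%, 28.1%, 53.3% and 78.1% in YTBI_Isotype, YTBI_aCD49d, ATBI_Isotype and ATBI_aCD49d. The clones of the other alpha chains were not thinned in this way, so these values are not set against theirs.

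**Figure D3:**
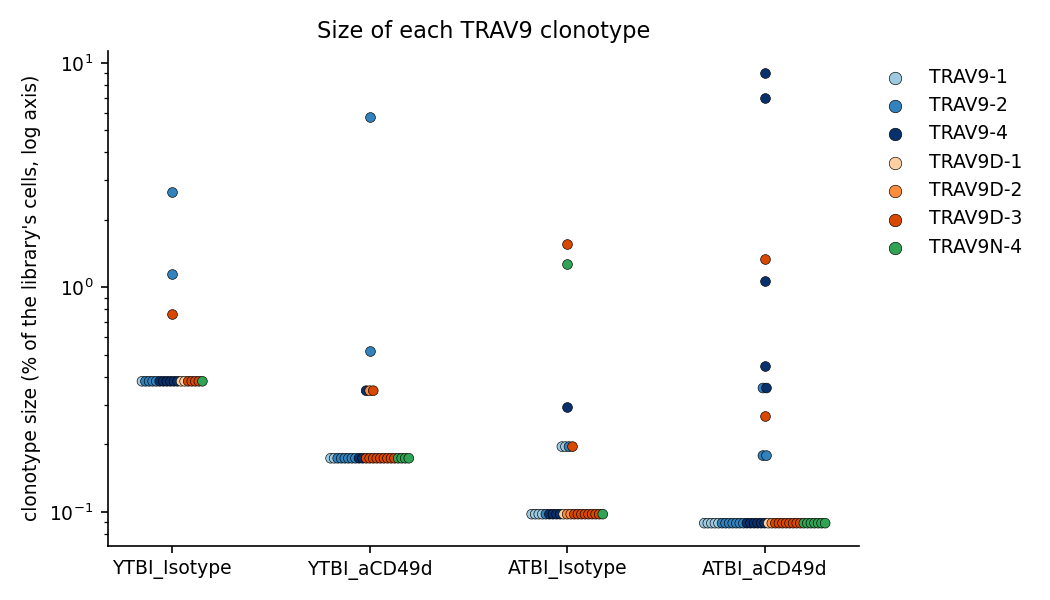
Size of each TRAV9 clonotype as a percentage of its library's cells, on a log axis, with 1 point per clonotype coloured by segment. The lowest row in each library holds the single cells, and the 2 highest points of ATBI_aCD49d, at 8.99% and 6.95%, both carry TRAV9-4.

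The largest clones that used TRAV9-2 or TRAV9-4 were in YTBI_Isotype, YTBI_aCD49d and ATBI_aCD49d. In all 3 of these libraries the largest clonotype carried a TRAV9 chain, which was known when the family was chosen. It held 7 of 262 cells in YTBI_Isotype (2.67%, 1.08 to 5.43%), 33 of 577 in YTBI_aCD49d (5.72%, 3.97 to 7.94%) and 101 of 1123 in ATBI_aCD49d (8.99%, 7.39 to 10.8%). The 2nd largest clonotype of ATBI_aCD49d, with 78 cells (6.95%, 5.53 to 8.59%), also carried TRAV9-4. In ATBI_Isotype the largest TRAV9 clonotype ranked 7th, with 16 cells (1.56%, 0.896 to 2.53%). Of the clonotypes with at least 3 cells and at least 1% of their library, TRAV9 was carried by 2 of 8 in YTBI_Isotype, 1 of 5 in YTBI_aCD49d, 2 of 9 in ATBI_Isotype and 4 of 10 in ATBI_aCD49d. These held 33.3%, 53.2%, 6.70% and 49.5% of the cells in such clonotypes. Of all alpha-bearing clonotypes TRAV9 was carried by 10.9%, 7.47%, 8.16% and 9.66% in the same order. Since the family was chosen with its large clones known, the counts of large clonotypes restate that choice. The 1% line also asks for more cells in a larger library. The 4 of ATBI_aCD49d include a pair with the same CDR3 bases in both chains. With all clonotypes joined where these bases were the same, TRAV9 was carried by 3 of 8 there, and the counts of the other 3 libraries stayed as they were.

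The alpha CDR3s of 4 clones with TRAV9-2 or TRAV9-4 are printed so that their joins can be compared. Each was the largest clonotype of its library, or the next largest in ATBI_aCD49d. The sequences run from the Cys codon to the last CDR3 base. Capitals mark bases that match neither germline segment.
YTBI_Isotype, TRAV9-2 with TRAJ33: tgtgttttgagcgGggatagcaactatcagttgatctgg
YTBI_aCD49d, TRAV9-2 with TRAJ31: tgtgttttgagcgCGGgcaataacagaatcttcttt
ATBI_aCD49d, TRAV9-4 with TRAJ49: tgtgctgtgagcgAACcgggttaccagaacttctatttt
ATBI_aCD49d, TRAV9-4 with TRAJ34: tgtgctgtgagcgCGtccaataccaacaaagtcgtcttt
All 4 kept the 13 germline V bases whole and had 1 to 3 bases from neither segment. They used 4 different J segments and encoded 13, 12, 13 and 13 residues. Both TRAV9-4 clones of ATBI_aCD49d had 39 CDR3 bases and differed from each other at 15 of them. Because matching runs in from both ends, an added base that happens to equal the germline base is counted as germline, so these counts are lower limits.

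The beta chains of the same clones were unlike each other. In the sequences the capitals mark bases that match neither V nor J, which include the D segment.
YTBI_Isotype, TRBV13-3 with TRBJ2-7: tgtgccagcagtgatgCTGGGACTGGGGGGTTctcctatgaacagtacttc
YTBI_aCD49d, TRBV31 with TRBJ2-4: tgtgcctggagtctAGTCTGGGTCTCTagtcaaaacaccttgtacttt
ATBI_aCD49d, TRBV12-2+TRBV13-2 with TRBJ2-4: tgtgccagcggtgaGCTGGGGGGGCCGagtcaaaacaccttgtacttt
ATBI_aCD49d, TRBV10 with TRBJ2-7: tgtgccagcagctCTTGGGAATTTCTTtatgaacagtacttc
Each clone had its own beta V segment. TRBJ2-4 was shared by the YTBI_aCD49d clone and the larger ATBI_aCD49d clone, and TRBJ2-7 by the YTBI_Isotype clone and the smaller ATBI_aCD49d clone. The beta CDR3s encoded 17, 16, 16 and 14 residues.

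Beta V names need care in these files. The V regions of all 164 chains labelled TRBV10 matched Trbv4 (chr6:41059394-41059886, plus strand) with no mismatch and are not those of the gene named Trbv10 in the annotation. Of the 387 chains with the joint label TRBV12-2+TRBV13-2, 383 matched Trbv13-2 (chr6:41121396-41121832), as did all 54 chains labelled TRBV13-2 alone. These labels divided the largest TRAV9 clone. A further clonotype of ATBI_aCD49d with 12 cells had the same alpha CDR3 bases and the same beta CDR3 bases as the clonotype of 101 cells, and its beta chain was labelled TRBV13-2. Joined, they held 113 of 1123 cells (10.1%, 8.36 to 12.0%).

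Not every cell of these clones showed its alpha chain. The TRAV9 chain was read in 5 of the 7 cells in YTBI_Isotype, 21 of 33 in YTBI_aCD49d, and 72 of 101 and 68 of 78 in the ATBI_aCD49d clones, with beta chains in 7, 30, 101 and 77 cells. No other alpha chain was found in any of the 4 clones. The median count of unique molecular identifiers (UMIs) per TRAV9 chain was 3 in the YTBI_Isotype clone and in both ATBI_aCD49d clones and 2 in the YTBI_aCD49d clone. The medians of their beta chains were 8, 9, 12 and 7, in the order YTBI_Isotype, the TRAJ49 clone, the TRAJ34 clone and YTBI_aCD49d. The alpha chain rested on 1 UMI in 0 of 5 cells of the YTBI_Isotype clone, 4 of 21 of the YTBI_aCD49d clone, 12 of 72 of the TRAJ49 clone and 11 of 68 of the TRAJ34 clone.

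A further 3 TRAV9 clones held at least 1% of an aged library and did not use TRAV9-2 or TRAV9-4. Their alpha CDR3s are given with capitals as above.
ATBI_Isotype, TRAV9D-3 with TRAJ27: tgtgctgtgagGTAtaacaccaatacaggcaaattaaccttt
ATBI_Isotype, TRAV9N-4 with TRAJ21: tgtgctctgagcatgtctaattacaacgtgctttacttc
ATBI_aCD49d, TRAV9D-3 with TRAJ32: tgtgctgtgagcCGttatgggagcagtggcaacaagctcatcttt
The TRAV9D-3 clone of ATBI_Isotype held 16 cells and used TRBV14 with TRBJ1-3. The TRAV9N-4 clone held 13 cells (1.27%, 0.678 to 2.16%), used TRBV5 with TRBJ2-1, and had no base outside its germline V and J. The TRAV9D-3 clone of ATBI_aCD49d held 15 cells (1.34%, 0.749 to 2.19%) and used the joint label TRBV12-2+TRBV13-2 with TRBJ2-5. In YTBI_Isotype a 2nd TRAV9-2 clone of 3 cells (1.15%, 0.237 to 3.31%) used TRAJ22 with TRBV29.

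The remaining TRAV9 clonotypes among the 3 largest of a library were small. In YTBI_Isotype a TRAV9D-3 clone with TRAJ26 and TRBV14 held 2 cells. In YTBI_aCD49d a TRAV9-2 clone with TRAJ23 and TRBV16 held 3 cells, of which 1 showed the alpha chain, and 3 clonotypes held 2 cells each. Of these 3, the TRAV9D-3 clonotype shared TRAJ31 and TRBV31 with the largest clone of that library, and their alpha CDR3s differed at 8 of 36 bases. The TRAV9D-3 chain was read in 1 of the 2 cells of this clonotype, and another alpha chain was found in both. Its beta J segment was TRBJ1-6, against TRBJ2-4 in the largest clone. In ATBI_Isotype a TRAV9-4 chain with TRAJ23 was found in 1 cell of a clonotype of 3 cells whose other alpha chain was found in all 3.

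TRAV9 joined 36 of the 60 annotated J segments, and the 1247 other alpha rearrangements together joined 43. TRAJ23 led with 11 of 121 distinct rearrangements (9.09%, 4.63 to 15.7%), against 4.41% of the other alpha rearrangements, followed by TRAJ34 with 8 (6.61%, 2.90 to 12.6%). TRAJ43, TRAJ31, TRAJ30 and TRAJ22 had 6 each. TRAJ22 led YTBI_Isotype with 3 of 21 rearrangements, TRAJ31 and TRAJ23 led YTBI_aCD49d with 4 of 29 each, TRAJ23 and TRAJ12 led ATBI_Isotype with 3 of 28 each, and TRAJ34 led ATBI_aCD49d with 6 of 43. By cells, TRAJ49 and TRAJ34 led through the 2 large clones, with 82 and 75 TRAV9 cells in ATBI_aCD49d. Of the TRAJ49 cells all but 1 carried the CDR3 of the largest clone.

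The J segment used went with the copy of the V segment. J segments were numbered from 1 to 60 along the locus, from the 5′ end nearest the V segments. Of 64 rearrangements of the unmarked TRAV9 segments, 31 used 1 of the first 30 J segments (48.4%). Of 57 rearrangements called as D or N, 13 did (22.8%), a difference of 25.6 points (7.44 to 41.9). The unmarked share was higher in each library, with differences of 8.65, 39.9, 32.8 and 13.1 points, and only the interval of YTBI_aCD49d lay above 0. The 12 other families with D or N copies showed a difference of 32.6 points (27.0 to 38.0), 56.9% against 24.3%. The TRAV9 value lay near that of these families and its interval held it.

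**Figure D4:**
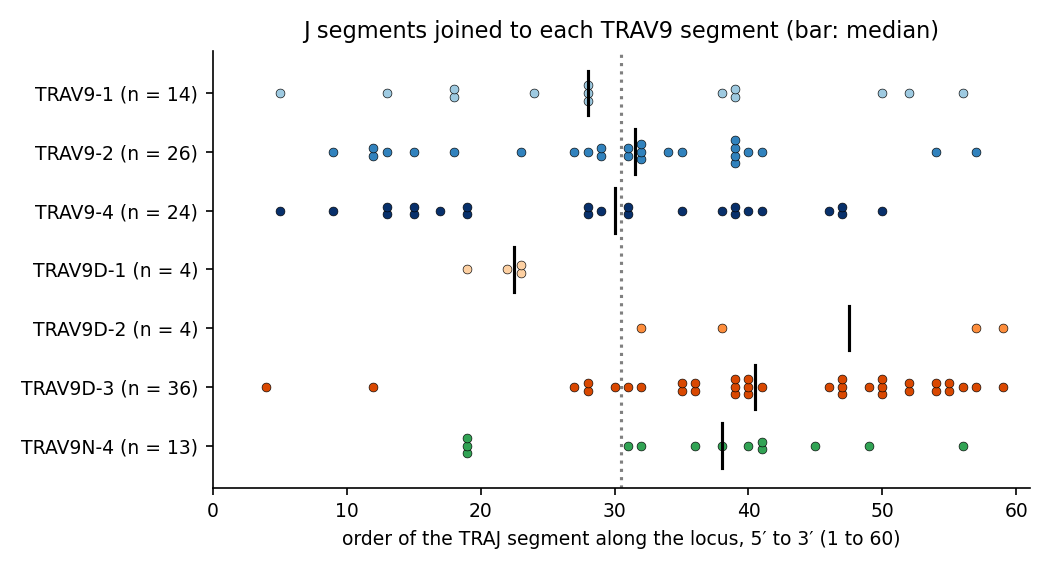
Order of the J segment along the locus, from 1 at the 5′ end to 60, for every distinct TRAV9 rearrangement, by the V segment called, with a bar at the median and a dotted line after the first 30. The medians of TRAV9D-3 and TRAV9N-4, 40.5 and 38, lie to the right of those of TRAV9-1, TRAV9-2 and TRAV9-4, at 28, 31.5 and 30.

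TRAV9D-3 used a J segment among the first 30 in 6 of 36 rearrangements (16.7%, 6.37 to 32.8%), TRAV9-2 in 11 of 26 (42.3%, 23.4 to 63.1%) and TRAV9-4 in 12 of 24 (50.0%, 29.1 to 70.9%). TRAV9D-1 stood apart from the other D segments, with 4 of 4 among the first 30, while TRAV9D-2 had 0 of 4. Both rest on 4 rearrangements.

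CDR3 length of TRAV9 chains was much like that of other alpha chains. It averaged 13.6 ± 1.23 residues (SD over 121 rearrangements) with a median of 14, against 13.6 ± 1.39 residues (SD over 1247) with a median of 14. The library means were 14.0, 13.7, 13.5 and 13.4 residues in YTBI_Isotype, YTBI_aCD49d, ATBI_Isotype and ATBI_aCD49d, all within 1 SD of each other. A length of 14 residues was found in 39.7% of TRAV9 and 31.5% of other rearrangements. The bases matching neither V nor J averaged 2.92 ± 2.05 in TRAV9 and 2.67 ± 2.10 in other alpha chains. No such base was found in 12 TRAV9 rearrangements (9.92%, 5.23 to 16.7%) and in 203 of 1245 others (16.3%, 14.3 to 18.5%). Rearrangements seen in at least 2 cells had 2.58 ± 2.06 such bases (n = 19) and those seen in 1 cell 2.98 ± 2.05 (n = 102).

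**Figure D5:**
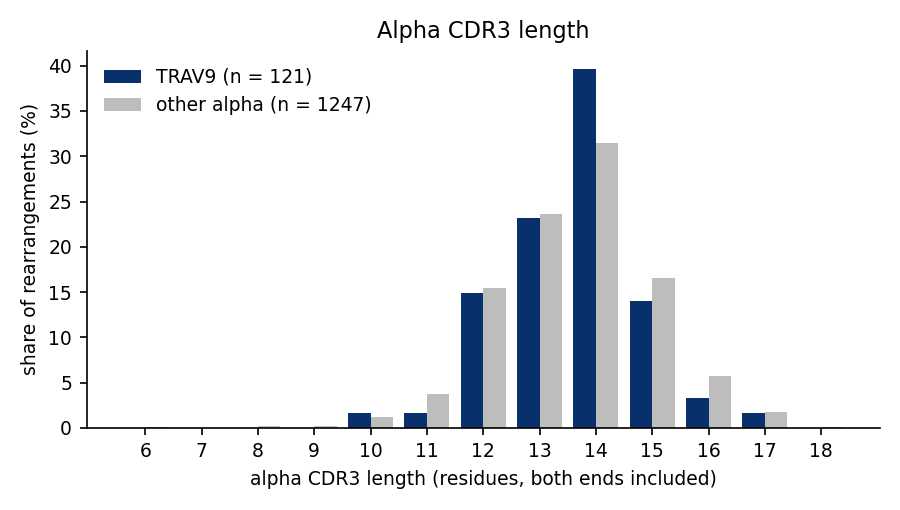
Alpha CDR3 length in residues, both end residues included, as the share of 121 TRAV9 (dark) and 1247 other (grey) rearrangements in percent. Both distributions peak at 14 residues, with 39.7% and 31.5%.

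No TRAV9 CDR3 was shared between libraries, as bases or as residues, and the 121 rearrangements encoded 121 different CDR3s. Sharing was also rare among the 1247 other alpha rearrangements, with 4 to 11 CDR3s of the same bases in a pair of libraries, so the absence is not read as particular to TRAV9. Near neighbours did occur. Of 1804 pairs of equal length, 13 differed by 1 residue, all 13 within the same J segment, 9 of them between libraries and 3 within the same TRAV9 segment. In none of the 13 were both the beta V and the beta J segment the same. TRAJ34 supplied 5 of these pairs, and the large TRAV9-4 clone was in 2 of them, so the TRAJ34 chains of 39 CDR3 bases are shown in full.
ATBI_aCD49d, TRAV9-4, 68 cells: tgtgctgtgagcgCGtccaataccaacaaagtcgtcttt
ATBI_aCD49d, TRAV9D-3, 1 cell: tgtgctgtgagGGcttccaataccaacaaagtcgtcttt
ATBI_aCD49d, TRAV9-1, 1 cell: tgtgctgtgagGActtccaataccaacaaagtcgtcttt
ATBI_Isotype, TRAV9-1, 1 cell: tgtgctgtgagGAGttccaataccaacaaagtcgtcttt
YTBI_Isotype, TRAV9-1, 1 cell: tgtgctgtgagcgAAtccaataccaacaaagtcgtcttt
The TRAV9D-3 chain and the YTBI_Isotype chain each differed from the large clone by 1 residue, and both other chains by 2. The beta chain paired with the TRAV9D-3 chain carried the same V label as the large clone, TRBV10, with TRBJ1-5 in place of TRBJ2-7. The beta chain of the YTBI_Isotype cell used TRBV12-1 with TRBJ2-7. The 5 sequences differ only within a few bases of the join, since the V bases before it are nearly the same in these segments. The TRAJ49 clone had no such neighbour: the other 3 TRAV9 chains with TRAJ49 had CDR3s of other lengths.

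A beta chain was known for 119 of the 122 TRAV9 clonotypes. They used 21 beta V labels. By genome match the most frequent were TRBV13-2 in 16 clonotypes (13.4%, 7.88 to 20.9%), TRBV4, the segment labelled TRBV10, in 11 (9.24%, 4.71 to 15.9%) and TRBV13-3 in 10 (8.40%, 4.10 to 14.9%). Among 1214 clonotypes with other alpha chains these shares were 15.3%, 4.04% and 6.59%. TRBV13-3 led in YTBI_Isotype with 3 clonotypes, TRBV12-2 and TRBV31 in YTBI_aCD49d with 5 each, TRBV14 in ATBI_Isotype with 4 and TRBV13-2 in ATBI_aCD49d with 10, or 8 once clonotypes with the same CDR3 bases were joined. TRBJ2-7 was the leading beta J in 31 clonotypes (26.1%, 18.4 to 34.9%), against 19.4% elsewhere. TRBJ1-4 and TRBJ2-3 followed with 13 clonotypes each (10.9%), against 8.32% and 7.83%. Beta CDR3s averaged 13.9 ± 1.45 residues (SD over 122 chains) with TRAV9 and 14.0 ± 1.40 (SD over 1253) with other alpha chains. TRBJ1-4 led in ATBI_Isotype with 5 clonotypes, while TRBJ2-7 led in the other 3 libraries with 6, 8 and 13.

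A second alpha chain was found in 14 of the 341 TRAV9 cells, and in 1 of these it was another TRAV9 chain. The TRAV9 chain had most UMIs in 10 of the 14. No TRAV9 clonotype had alpha chain evidence in the deposited columns for iNKT or MAIT cells, T cells of nearly invariant alpha chains that use other V segments. For iNKT and MAIT cells in turn, these columns listed a beta chain alone for 17 (13.9%) and 25 (20.5%) of the 122 clonotypes. Some entry, alpha or beta, was listed for 19.3% and 23.7% of the 1255 clonotypes with other alpha chains.

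Alpha chain recovery differed between libraries beside these shares. An alpha chain was found in 82.8%, 78.3%, 67.6% and 83.4% of the cells of YTBI_Isotype, YTBI_aCD49d, ATBI_Isotype and ATBI_aCD49d, and the share of other alpha chains resting on 1 UMI was 10.2%, 11.0%, 23.3% and 6.50%. For TRAV9 chains it was 7.14%, 16.3%, 15.7% and 16.8%. The lower recovery in ATBI_Isotype touches the shares taken over alpha-bearing cells, and its part in them was not tested. Counted instead as every cell of a TRAV9 clonotype over all cells, the shares were 11.5%, 11.3%, 5.96% and 23.2%. A single barcode was shared by 2 libraries, with different receptors, and it carried no TRAV9 chain.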

How the data were processed

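The authors prepared 5′ single-cell libraries with immune profiling, aligned TCR reads to mm10 and called chains and clonotypes with Cell Ranger (7.2.0 in the submitters' processing notes). The deposited contig tables give UMIs and reads as counts per chain. The deposited clonotype tables give cells as counts and as a fraction of the library. The libraries held 262, 577, 1024 and 1123 cells, with 4473, 7483, 10419 and 18415 UMIs. Transcriptomes were not used here, so the authors' later step of dropping receptors from cells that were not T cells was not repeated.

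Cell shares were taken over cells with an alpha chain and clonotype shares over deposited clonotypes with one. J use and CDR3 length were taken over distinct rearrangements (V, J and CDR3 bases). Joins were parsed against GRCm38 V and J genes of GENCODE vM21. The parser was tested on simulated joins. Intervals are Clopper-Pearson (exact) for shares and Newcombe for differences. No test was run, as each group has 1 library. PCR products are not independent molecules.

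The segments described are all those found. J and beta V segments are the 3 most frequent and the first of each library. Clones are the 3 largest TRAV9 clonotypes of each library, and those of at least 1% and 3 cells. Members, lists and rules were chosen with earlier results of these data known. No doublet caller was run. The 47 of 2986 cells with more than 2 alpha or more than 1 beta chain (3 of 341 TRAV9 cells) were kept, and left out in an alternative. Alternatives changed the set of cells, the UMI minimum, the clonotype definition, the denominator and the large clones. Python 3.11.15, pandas 2.3.3, scipy 1.17.1 and pysam 0.24.0 were used.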

Additional observations from a re-analysis of the deposited data

Results flagged for a closer look

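The difference in TRAV9 share between aCD49d Ab and isotype had opposite signs at the 2 ages. In cells it was 15.5 points in the aged libraries and −2.28 points in the young ones, and in clonotypes 1.49 and −3.41 points. Whether these differences depend on age was not tested, as every group is a single library. The young interval and both clonotype intervals include 0.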

How the results depend on the processing

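Over 192 recomputed values in 15 alternative settings, 172 stayed within the counting interval of the reported value (for CDR3 length, within 1 SD) and 20 moved outside it. A reversal was looked for only in differences whose interval excluded 0, here the aged difference in cell share, and none was found. Some settings could not change a value, such as regrouping clonotypes for the cell shares, so the 172 include values that were bound to stay. Leaving out the largest TRAV9 clone of each library gave cell shares of 16.4% in ATBI_aCD49d and 6.26% in YTBI_aCD49d and an aged difference of 10.8 points, and clonal shares by cells of 78.1% in ATBI_aCD49d, 21.7% in YTBI_Isotype and 28.1% in YTBI_aCD49d. Leaving out the TRAV9 clones above 5% of their library was a setting chosen after seeing the data, with clonotypes of the same CDR3 bases joined and large clones of other alpha chains kept. It gave 8.25% in ATBI_aCD49d, 6.26% in YTBI_aCD49d and an aged difference of 0.879 points (−1.98 to 3.70). The young difference of −6.64 points had an interval below 0 (−12.2 to −1.67). Over all cells with a clonotype the cell shares were 4.98% in ATBI_Isotype and 19.1% in ATBI_aCD49d. Counting only cells with both chains gave a clonal share of 43.5% in YTBI_aCD49d, and grouping cells by every V, J and CDR3 gave 43.8% there, with largest clones of 6.41% in ATBI_aCD49d and 3.12% in YTBI_aCD49d, since cells that miss a chain then leave their clone. At the cell number of the smallest library the clonal share of ATBI_Isotype was 52.2%. In cells in place of clonotypes the unmarked copy was 84.6% in ATBI_aCD49d and 68.8% in YTBI_aCD49d, and the D and N copies of ATBI_aCD49d 12.1% and 3.27%. Joining clonotypes with the same alpha and beta CDR3 bases was also chosen after seeing the data and kept each value within its interval. No paired analysis was possible because every group is a single library. One cell is 0.461% of the alpha-bearing cells of YTBI_Isotype and 0.107% of those of ATBI_aCD49d.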
